A study of Mus musculus with 8 samples.

Results

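Kinesins are motor proteins that move along microtubules. Mitotic kinesins build the spindle, move chromosomes and cut the dividing cell apart, and their transcripts accumulate as cells approach division. Transport kinesins carry vesicles, mitochondria and other cargo toward microtubule plus ends, and neurons rely on them to supply their axons. In the developing gut wall both jobs meet in the enteric neural crest lineage, whose progenitors divide while they migrate and whose daughters grow axons as enteric neurons. Other kinesins trim microtubule ends, act in cilia or hold signalling proteins.

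The kinesin genes were taken as every row whose symbol began with Kif and a digit. The rule found 39 of 18561 genes, of which 38 encode kinesins and 1, Kif1bp, encodes a kinesin binding protein. By textbook function 12 were placed with mitosis, 8 with axonal transport, 5 with other transport and 13 with microtubule ends, cilia or signalling. Gene expression was measured in 8 libraries from mouse gastrointestinal tracts at embryonic day 14.5, each from about 200 cells sorted with antibodies against CD271 and CD57, and read by Smart-seq2, an amplified full-length cDNA method. Of these, 5 were labelled Emb knockdown and 3 WT, Emb being the gene of embigin, a membrane protein of the immunoglobulin superfamily. The titles of all 8 libraries read enteric neural crest cell. The labels give no promoter, construct, cell type in which the knockdown was made, strain, sex, litter or batch. They also do not say that libraries came from different embryos, so every p-value here measures the spread between libraries, which may be technical.

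Total counts ranged from 20116607 to 26959265 per library, and values below are in CPM (counts in every 1000000 of a library after TMM scaling) unless FPKM, which also divides by gene length, is named. Emb itself was not lower in the libraries labelled knockdown, which had 353, 349, 37.2, 21.4 and 21.7 CPM in numbers 1 to 5, against 16.9, 17.7 and 15.9 CPM in WT 1 to 3. The log2 fold change was 3.21 ± 1.21 (SE) with 8 libraries and 0.67 ± 0.26 without knockdown 1 and 2 (adjusted p = 0.217 and 0.0972, edgeR's quasi-likelihood test with Benjamini-Hochberg adjustment). Knockdown 1 and 2 stood apart from all other libraries: 14 leukocyte markers made up 2.27% and 2.02% of their counts, against 0.149% to 0.262% in knockdown 3 to 5 and 0.0493% to 0.0766% in WT. In those libraries 12 enteric neural crest markers made up 0.0162% and 0.0134% of counts, with 1 and 4 of them at 0, and 13 neuron markers 0.00109% and 0.00124%, with 2 and 3 at 0. In knockdown 3 to 5 neural crest markers held 0.121% to 0.143% and neuron markers 0.0757% to 0.144%, against 0.350% to 0.358% and 0.214% to 0.256% in WT. Mesenchyme markers held 0.516% to 0.597% in knockdown 3 to 5 and 0.276% to 0.421% in WT, and 10 endothelium markers 0.0123% to 0.0229% in knockdown 3 to 5 and 0.0587% to 0.0806% in WT. With 6 libraries 9 of the 10 endothelium markers fell, with a median log2 fold change of -1.83. Each result is therefore given for 8 libraries and for the 6 without knockdown 1 and 2. With 8 libraries 0 of 15411 genes passed an adjusted p of 0.05, and with 6 libraries 3090 of 15115 passed, 54.1% of them higher in knockdown, or 45.4% where library size alone set the scaling and 38.4% on log2(FPKM + 1).

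Detection was broad: 37 of the 39 genes passed the filter on low counts, and Kif2b and Kif28 had at most 2 counts in any library. Per length, the highest kinesin levels in WT were those of Kif22 (53.4, 78.8 and 71.9 FPKM), Kif20a (33.4, 57.7 and 48.6 FPKM) and Kif5b (40.8, 50.3 and 46.5 FPKM). The range of Kif20a overlapped those of both others, while Kif22 lay above Kif5b. Next came Kif1b with 28.5, 24.6 and 26.8 FPKM and Kif23 with 23.0, 26.9 and 23.7 FPKM, which overlapped each other. With 8 libraries 0 of the 37 genes passed, as for all genes (0% called). Of the 36 kinesins 5 had an unadjusted p under 0.05, as did 2865 of all genes, and DESeq2 called 4 of the 37 and limma voom 10, where they called 14.4% and 24.0% of all genes. With 6 libraries 5 kinesins passed, against 20.4% of all genes tested, so calls were no more frequent among kinesins than among genes at large. Kif21b and Kif24 were higher in knockdown, where 11.1% of all genes were called higher, and Kif18b, Kif20a and Kif3c lower, where 9.37% were called lower. With the same 6 libraries DESeq2 called 9 of the 37 and limma voom 18, against 30% and 45.7% of all genes. The count moved with that of all genes when a library was left out: it was 15 without knockdown 3 and 0 without knockdown 4, where 5982 and 180 genes were called in all. Without knockdown 5 it was 3 (1660 genes in all), and without WT 1, 2 and 3 it was 2, 1 and 0 (1388, 417 and 294 genes). The log2 fold changes of the 5 called kinesins kept their sign in each of these fits, at 1.39 to 1.64 for Kif21b and -0.86 to -0.73 for Kif3c.

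**Figure D1:**
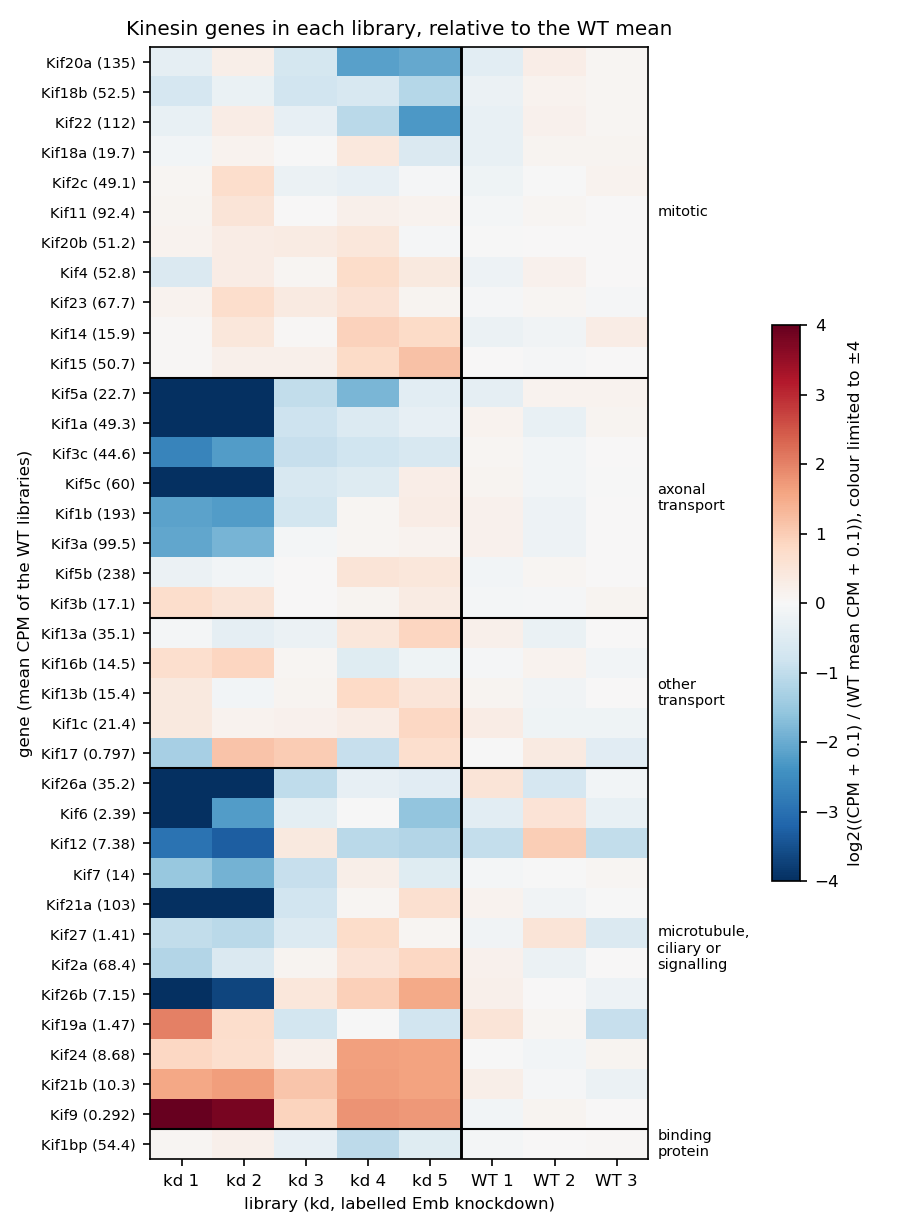
CPM of the 37 tested genes in every library, as log2 of each value plus 0.1 relative to the gene's own mean in WT, with genes grouped by class and libraries labelled knockdown left of WT. The axonal transport rows of Kif1a, Kif5a and Kif5c are dark blue in knockdown 1 and 2, and those of Kif1b, Kif3a and Kif3c paler blue. No mitotic row has both of these libraries below or both above the range of the other 6.

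The clearest contrast between the classes lay in knockdown 1 and 2. Of 11 mitotic kinesins, 0 had both libraries below or both above the range of the other 6. Of 8 axonal transport kinesins, 7 had both below and 1, Kif3b, both above. Among the 7, Kif5b was below only narrowly, with 201 and 219 CPM in knockdown 1 and 2 and 219 CPM in WT 1. Across all genes 31.8% had both libraries below and 28.1% both above. The mitotic count was thus far under the background and the axonal count of genes below far over it. That excess was not particular to the axonal class. Of 12 tested kinesins of microtubule ends, cilia or signalling, 8 had both libraries below and 2 both above. The neuron and neural crest markers were lowest in the same libraries and leukocyte markers highest, and their part in this contrast was not tested. In bulk libraries fewer cells of a type and less RNA per cell cannot be told apart.

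**Figure D2:**
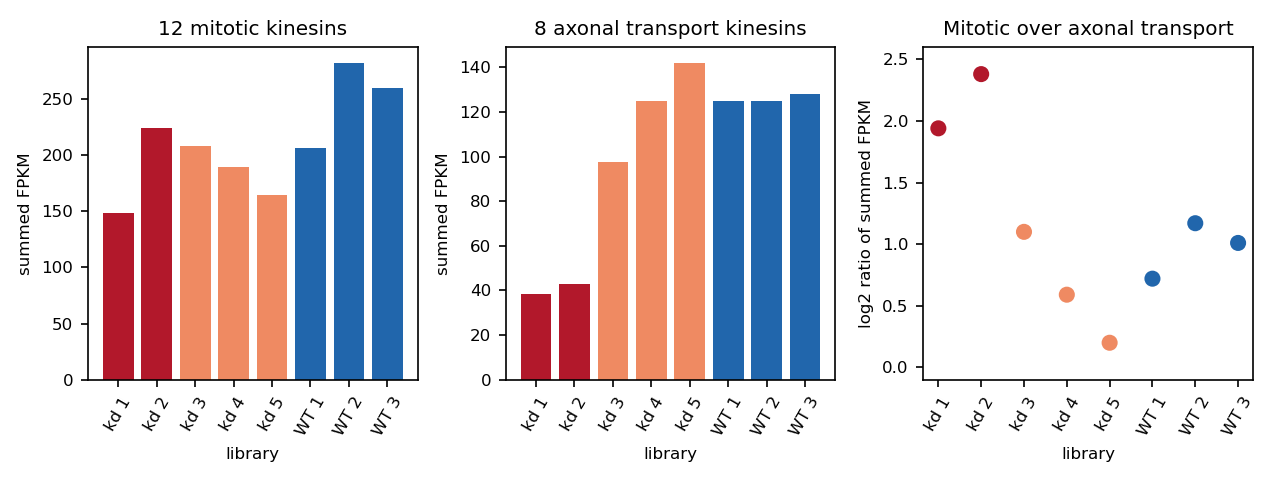
Summed FPKM of the mitotic and of the axonal transport kinesins in each library, and their ratio, as bars for the sums and points for the log2 ratio, libraries labelled knockdown left of WT. Knockdown 1 and 2 have the lowest transport sums, 38.5 and 43.1 FPKM, and the highest log2 ratios, 1.94 and 2.38.

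Summed over the class, mitotic kinesins had 148, 224, 208, 189 and 164 FPKM in knockdown 1 to 5, against 206, 282 and 260 FPKM in WT 1 to 3. The axonal transport kinesins had 38.5, 43.1, 97.4, 125 and 142 FPKM in knockdown and 125, 125 and 128 FPKM in WT. Transport sums were thus spread widely in knockdown, at 89.2 ± 47.0 FPKM (SD, n = 5), and hardly at all in WT, at 126 ± 1.73 FPKM (SD, n = 3). The ratio of mitotic to transport FPKM was 3.85, 5.20, 2.14, 1.51 and 1.15 in knockdown, against 1.65, 2.25 and 2.02 in WT, and the groups overlapped. On the log2 scale it averaged 1.24 ± 0.91 in the 5 knockdown libraries and 0.63 ± 0.45 in knockdown 3 to 5, against 0.97 ± 0.23 in the 3 WT libraries (SD). The difference was 0.27 with 8 libraries and -0.34 with 6, and -0.01 without knockdown 2 alone. With the mean of the members' log2(FPKM + 0.1) in place of the log of the sum it was 1.15 with 8 libraries and 0.16 with 6, so the sign of the 6-library difference rested on how members were combined. No test was made of this ratio, a sum over chosen genes.

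Mitotic kinesins. With 6 libraries Kif18b and Kif20a fell, 0 of 11 rose and 9 did not pass; the median log2 fold change was 0.12, beside 0.02 over all genes. With 8 libraries the median was 0.21, beside 0.07 over all genes, and it turned to -0.05 where library size alone set the scaling and to -0.12 and -0.13 on FPKM with pseudocounts of 1 and 0.1. Those scalings moved the median of all genes to -0.17, -0.21 and -0.35, so relative to all genes the mitotic median stayed higher, by 0.12, 0.10 and 0.22. Behind these small medians, members went in both directions.

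Kif18b, a kinesin-8 that limits the length of astral microtubules, had 32.8, 44.0, 30.9, 33.8 and 23.6 CPM in knockdown 1 to 5 and 44.7, 57.5 and 55.4 CPM in WT 1 to 3. Every knockdown library lay below every WT library, by a narrow margin in knockdown 2. Its log2 fold change was -0.84 ± 0.20 with 6 libraries (edgeR, adjusted p = 0.0266) and -0.67 ± 0.24 with 8 (adjusted p = 0.202). Kif20a, or MKLP2, which brings the chromosomal passenger complex to the central spindle, had 104, 158, 82.6, 30.1 and 32.7 CPM in knockdown, against 101, 162 and 141 CPM in WT. Knockdown 1 and 2 lay at WT levels, and knockdown 3 to 5 all below WT. The fold change was -1.47 ± 0.39 with 6 libraries (edgeR, adjusted p = 0.0330) and -0.73 ± 0.55 with 8 (adjusted p = 0.528). The Kif18b call was lost without knockdown 4 or 5 or without WT 2 or 3 (adjusted p = 0.0803, 0.0562, 0.111 and 0.110). That of Kif20a was lost without knockdown 4 or 5 or any WT library (adjusted p = 0.134, 0.0915, 0.0549, 0.110 and 0.101), and its gene overlaps Brd8 and Cdc23, whose reads an unstranded library cannot separate.

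Kif22, or Kid, a chromokinesin that pushes chromosome arms away from the poles, had 91.6, 138, 89.0, 52.9 and 22.5 CPM in knockdown, against 91.4, 126 and 118 CPM in WT. As for Kif20a, knockdown 4 and 5 were lowest and knockdown 1 and 2 overlapped WT. The difference did not pass, at -1.02 ± 0.41 (edgeR, adjusted p = 0.108, 6 libraries). Its expected counts were whole numbers in every library. Whether it shares reads with another locus, such as the pseudogene Kif22-ps, cannot be read from this. The annotation used for counting is not given and may lack that locus. Kif15, a kinesin-12 that helps to keep the spindle bipolar, had 52.8, 58.7, 57.9, 87.1 and 115 CPM in knockdown and 51.8, 49.3 and 51.0 CPM in WT. All 5 knockdown libraries were above WT, knockdown 1 only just. At 0.78 ± 0.24 the difference missed the threshold (edgeR, adjusted p = 0.0541, 6 libraries).

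Kif15 and Kif22 thus ranked knockdown 3, 4 and 5 in opposite order. Kif20b, a midbody kinesin of cytokinesis, had 56.7, 62.6, 64.4, 69.8 and 49.2 CPM in knockdown, against 50.1, 51.3 and 52.1 CPM in WT, overlapping through knockdown 5. Kif20a made up 73.4%, 78.7%, 65.4%, 41.0% and 51.5% of the FPKM of the Kif20 pair in knockdown 1 to 5 and 74.5%, 81.7% and 79.4% in WT. The remaining 6 tested mitotic kinesins had log2 fold changes from -0.19 (Kif2c, the depolymerase MCAK that corrects kinetochore attachments) to 0.64 (Kif14, a cytokinesis kinesin) with 6 libraries, and none passed. Kif11, or Eg5, the motor that separates spindle poles, had 99.8, 133, 93.6, 106 and 101 CPM in knockdown, against 87.5, 96.8 and 93.0 CPM in WT. Kif23, or MKLP1, the centralspindlin motor, had 75.0, 110, 86.4, 102 and 73.1 CPM in knockdown, above 66.2, 72.1 and 64.9 CPM in WT, without overlap but with an adjusted p of 0.166 (edgeR, 6 libraries).

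Among the mitotic kinesins the fold change with 6 libraries followed transcript length, as implied by the ratio of counts to FPKM, with Spearman's rho 0.60 over 11 genes, beside 0.14 over 13375 genes. The shortest were Kif22, Kif2c, Kif23, Kif18b, Kif18a and Kif20a, at 1856 to 3262 bases, and the longest Kif14, at 7290 bases. For the 8 axonal transport kinesins rho was -0.29. These genes share their libraries, so the coefficients are descriptive, and the part of length in the mitotic differences was not tested.

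Promoter sequences are shown for the mitotic kinesins that carry, close to their start, the cell cycle genes homology region, an element known to be bound by MuvB complexes and found in genes expressed late in the cell cycle. The letters searched were TTTGAA and TTCGAA on both strands, TTCAAA being the first read from the other strand. Sequences are those of RefSeq on GRCm38.p6, given 5′ to 3′ on the strand of the gene, from 40 bases before the start base to 29 after it, with the element in capitals. The start base is that of the promoter entry. In Kif18b, Kif20b, Kif22, Kif23 and Kif24 it lay inside the annotated gene and not at its outer end, so nearness to the start depends on this choice. Kif24, a kinesin of another class that rose and carries the element, and 2 axonal kinesins without the letters are added for comparison.
Kif11, chr19:37376342-37376411, plus strand: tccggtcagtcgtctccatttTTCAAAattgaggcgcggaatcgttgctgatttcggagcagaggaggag
Kif15, chr9:122951041-122951110, plus strand: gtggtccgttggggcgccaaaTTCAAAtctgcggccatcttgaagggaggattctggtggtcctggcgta
Kif22, chr7:127042391-127042460, minus strand: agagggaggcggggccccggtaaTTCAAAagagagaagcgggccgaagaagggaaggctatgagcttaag
Kif23, chr9:61946770-61946839, minus strand: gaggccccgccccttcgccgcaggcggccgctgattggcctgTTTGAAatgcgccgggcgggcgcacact
Kif18b, chr11:102925095-102925164, minus strand: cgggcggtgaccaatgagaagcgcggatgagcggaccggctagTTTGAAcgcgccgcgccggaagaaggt
Kif20b, chr19:34922318-34922387, plus strand: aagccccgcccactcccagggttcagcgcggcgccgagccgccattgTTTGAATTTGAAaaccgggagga
Kif4, chrX:100626025-100626094, plus strand: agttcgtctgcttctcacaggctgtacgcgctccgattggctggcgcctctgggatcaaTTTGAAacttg
Kif24, chr4:41464819-41464888, minus strand: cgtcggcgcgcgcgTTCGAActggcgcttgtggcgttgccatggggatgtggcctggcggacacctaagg
Kif3c, chr12:3365092-3365161, plus strand: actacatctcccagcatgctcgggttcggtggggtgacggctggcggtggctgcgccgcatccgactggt
Kif5c, chr2:49619246-49619315, plus strand: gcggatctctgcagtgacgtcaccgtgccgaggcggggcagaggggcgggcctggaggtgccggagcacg

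Counting the start base as 1 and the base before it as -1, the element began at position -19 in Kif11 and Kif15, -17 in Kif22, 3 in Kif23, 4 in Kif18b and 20 in Kif4. Kif20b carried 2 copies end to end, from 8 and 14. RefSeq had 35 promoters, from 250 bases before to 50 after the start, for 31 of the 39 genes, a gene with several starts having several. The letters occurred within 30 bases of the start in 7 of 11 mitotic promoters (63.6%), 0 of 8 axonal transport, 0 of 4 other transport and 2 of 12 in the remaining class, Kif24 and Kif26b, against 3.13% of 32851 promoters. These are counts of promoters and not of genes. The 8 axonal promoters included 2 each of Kif1a and Kif1b, those of Kif1b overlapping, and none of Kif5a or Kif5b. In the whole promoter they occurred in 9 of 11 mitotic and 1 of 8 axonal transport promoters, against 19.2% of all. CCAAT or its complement ATTGG, the letters of the NF-Y site, occurred in 7 of 11 mitotic and 4 of 8 axonal promoters, against 37.4% of all. Mitotic kinesins that carried the element near the start included 1 that fell, Kif18b, and 6 that did not pass. Kif20a, which also fell, and Kif21b, which rose, had no promoter among those read and were not examined. The 11 mitotic promoters instead included that of Kif2b, which was not tested for expression. A match of letters describes the window and does not show binding.

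Axonal transport kinesins. With 6 libraries Kif3c fell, 0 of 8 rose and 7 did not pass; the median log2 fold change was -0.14, beside 0.02 over all genes, and it ran from -0.41 without knockdown 5 to 0.00 without knockdown 3. With 8 libraries the median was -0.77, beside 0.07 over all genes, with 6 of 8 values negative and none past the threshold, and it ran from -1.18 to -0.50 with 1 library left out, without knockdown 5 being lowest. This median stayed negative in every alternative run with 8 libraries. It lay between the values of Kif5c (-0.95) and Kif1b (-0.58), and Kif5b and Kif3b had positive values.

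Kif3c, the neuronal kinesin-2 motor subunit, had 7.06, 9.42, 23.3, 25.8 and 28.4 CPM in knockdown 1 to 5, against 47.0, 41.5 and 45.4 CPM in WT 1 to 3. Every knockdown library was below every WT library, and knockdown 1 and 2 were lowest. The log2 fold change was -0.79 ± 0.18 with 6 libraries (edgeR, adjusted p = 0.0210) and -1.25 ± 0.47 with 8 (adjusted p = 0.217). It missed the threshold without knockdown 4 and without WT 1, 2 or 3 (adjusted p = 0.0854, 0.0647, 0.0756 and 0.0950). Kif3c overlaps noncoding genes, and its expected counts were not whole numbers in 3 libraries, so some of its reads may be shared. Its partner Kif3a had 23.3, 27.6, 94.1, 104 and 110 CPM in knockdown and 112, 86.5 and 100 CPM in WT. Knockdown 3 to 5 overlapped WT while knockdown 1 and 2 lay far below, and the fold change was -0.47 ± 0.55 with 8 libraries and 0.05 ± 0.17 with 6 (edgeR, adjusted p = 0.703 and 0.865). Kif3b, which pairs with Kif3a in most cells, had 28.0, 24.7, 17.2, 18.4 and 21.4 CPM in knockdown, against 16.3, 16.6 and 18.5 CPM in WT. It was the 1 axonal transport kinesin that was highest in knockdown 1 and 2.

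The mix of kinesin-2 subunits differed accordingly. Kif3c made up 10.1%, 12.7%, 14.2%, 14.3% and 14.7% of the summed Kif3 FPKM in knockdown 1 to 5, against 22.5%, 24.2% and 23.3% in WT. Kif3b made up 48.8% and 40.5% in knockdown 1 and 2, 12.5% to 13.6% in knockdown 3 to 5 and 9.51% to 11.9% in WT. The groups did not overlap in either share.

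Kif5a and Kif5c are neuronal kinesin-1 heavy chains, and Kif5b is the one made in all cells. Kif5a had 0.361, 0.188, 11.4, 6.31 and 17.1 CPM in knockdown 1 to 5 and 17.7, 25.3 and 25.2 CPM in WT 1 to 3. The groups did not overlap, though knockdown 5 came close to WT 1. At -0.97 ± 0.36 with 6 libraries and -1.69 ± 1.19 with 8 the difference did not pass (edgeR, adjusted p = 0.0840 and 0.495), and Kif5a overlaps Dctn2. Kif5c had 0.618, 1.79, 38.5, 42.1 and 72.2 CPM in knockdown, against 65.4, 55.6 and 59.0 CPM in WT. It was nearly absent from knockdown 1 and 2, while knockdown 5 exceeded all WT libraries. Kif5b had 201, 219, 239, 339 and 325 CPM in knockdown and 219, 253 and 241 CPM in WT, knockdown 2 lying within 1 CPM of WT 1. Its difference did not pass, at 0.34 ± 0.19 (edgeR, adjusted p = 0.214, 6 libraries).

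Kif5b made up 99.5%, 99.2%, 84.1%, 88.8% and 80.3% of the summed Kif5 FPKM in knockdown, against 74.5%, 77.1% and 75.8% in WT. It also made up 67.8%, 69.4%, 45.2%, 47.7% and 42.2% of the FPKM of all 8 axonal transport kinesins in knockdown and 32.7%, 40.1% and 36.2% in WT. Both shares were higher in every knockdown library than in any WT library. Expected counts of Kif5b were not whole numbers in all 8 libraries, so some of its reads may be shared with other loci. What remained in knockdown 1 and 2 was thus mostly the kinesin-1 of all cells. Without Kif5b the class summed to 12.4, 13.2, 53.3, 65.5 and 82.4 FPKM in knockdown, against 84.0, 75.2 and 82.0 FPKM in WT.

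**Figure D3:**
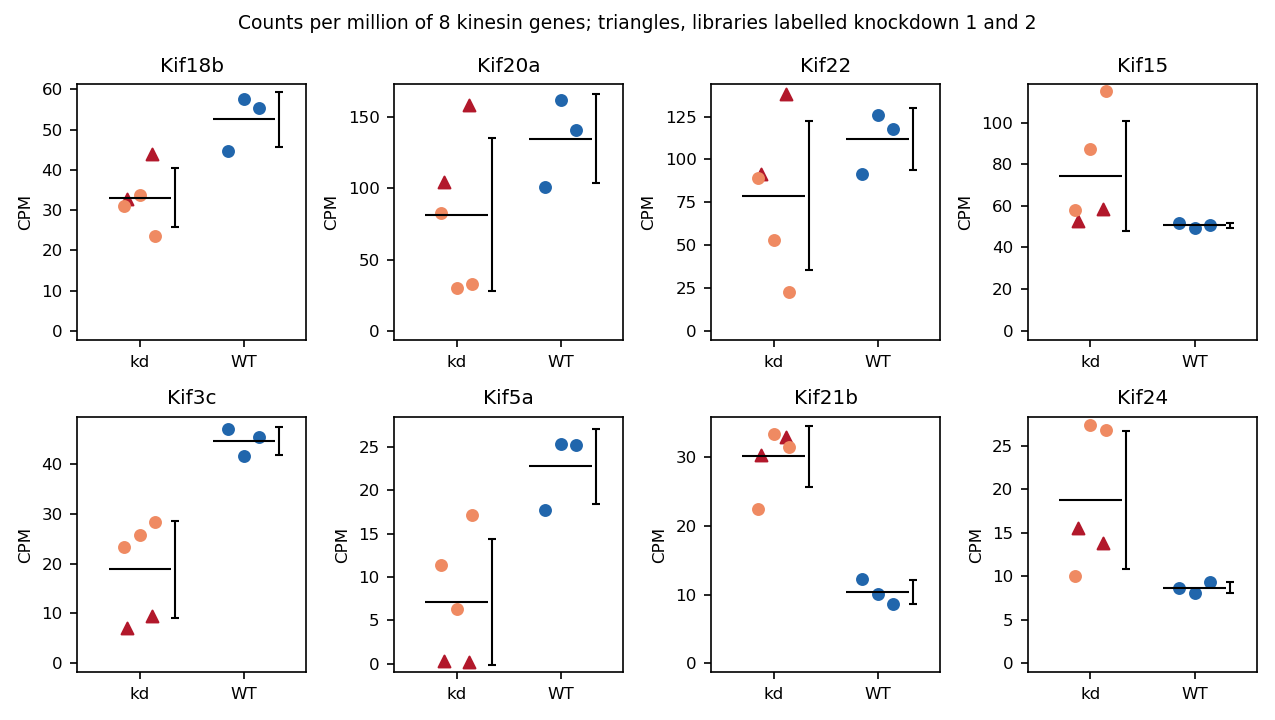
CPM of selected kinesins in each library, with points for libraries and lines for group mean and SD, libraries labelled knockdown left of WT. Kif18b, Kif3c and Kif5a lie below WT in all 5 knockdown libraries, and Kif21b and Kif24 above.

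**Figure D4:**
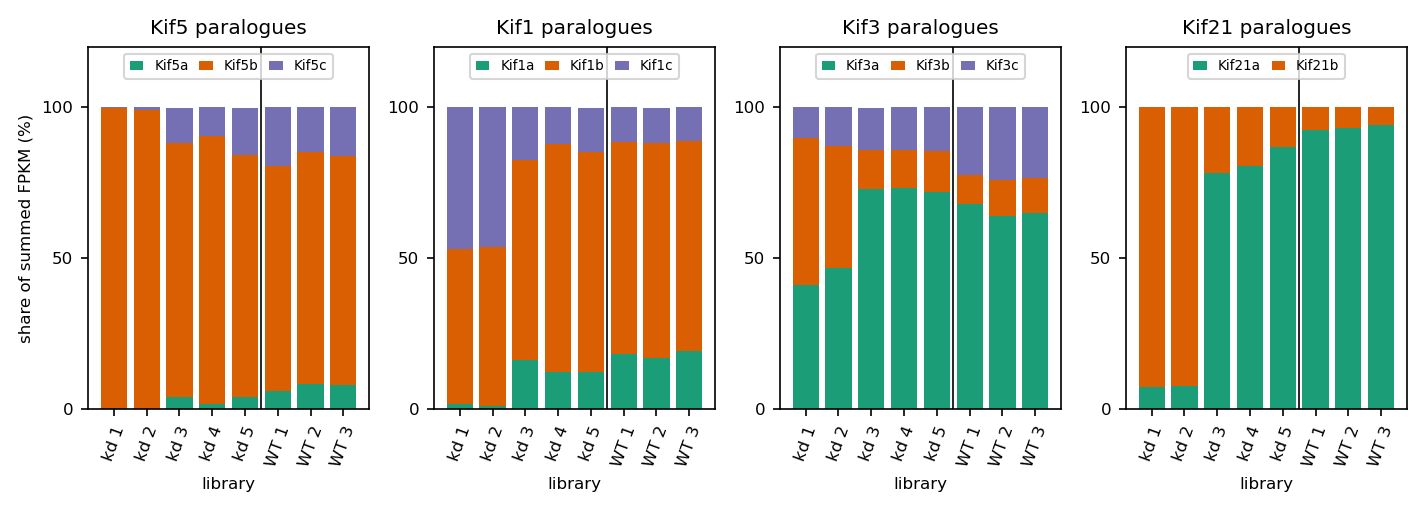
Share of each paralogue in the summed FPKM of its subfamily, as stacked bars per library, libraries labelled knockdown left of WT. Kif5b fills 99.5% and 99.2% of its subfamily and Kif21b 92.8% and 92.5% in knockdown 1 and 2.

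Kif1a, which carries synaptic vesicle precursors along axons, had 1.34, 0.706, 27.5, 33.4 and 38.9 CPM in knockdown 1 to 5 and 54.5, 40.4 and 53.0 CPM in WT 1 to 3. The groups did not overlap, knockdown 5 being nearest to WT. The difference did not pass, at -0.56 ± 0.21 with 6 libraries and -1.27 ± 1.11 with 8 (edgeR, adjusted p = 0.0838 and 0.590). Kif1b, which carries mitochondria or synaptic vesicle precursors by isoform, had 44.2, 40.7, 116, 205 and 239 CPM in knockdown, against 217, 168 and 195 CPM in WT. Knockdown 1 and 2 were again far below, knockdown 4 and 5 within or above the WT range. Within the Kif1 subfamily, Kif1c, a vesicle motor of many cell types, made up 46.9%, 46.2%, 17.6%, 12.2% and 14.8% of FPKM in knockdown and 11.4%, 11.7% and 11% in WT.

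The axonal members below WT in knockdown 3 to 5 were Kif3c, which passed the test, and Kif5a and Kif1a, which did not. With the same 6 libraries 5 of 13 neuron markers fell and 0 rose, their median log2 fold change being -0.87, and 8 of 12 neural crest markers fell and 0 rose, at a median of -1.19, where 9.37% of all genes were called lower. The part of either in the kinesin differences was not tested.

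Other transport kinesins. These 5 move endosomes, vesicles or ciliary cargo in many cells, and none passed. With 6 libraries their log2 fold changes ran from -0.17 (Kif16b) to 0.51 (Kif17, a dendritic and ciliary kinesin-2), with a median of 0.48. With 8 libraries the median was 0.38, and it came to -0.01 on log2(FPKM + 1), where the median of all genes was -0.21. Kif1c had 28.2, 23.4, 24.2, 26.5 and 38.4 CPM in knockdown, against 26.3, 18.8 and 19.1 CPM in WT, and WT 1 lay within the knockdown range. Kif13b, a vesicle motor, had 20.2, 14.3, 16.6, 26.8 and 21.8 CPM in knockdown and 16.5, 14.1 and 15.6 CPM in WT, overlapping through knockdown 2. Kif13a, which moves endosomal and Golgi cargo, had 33.1, 27.3, 29.6, 47.7 and 64.2 CPM in knockdown, against 40.4, 29.1 and 35.9 CPM in WT. Kif16b, which moves early endosomes, was highest in knockdown 1 and 2: it had 23.3, 26.4, 15.2, 10.3 and 12.8 CPM in knockdown and 13.9, 16.0 and 13.5 CPM in WT.

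Kinesins of microtubule ends, cilia and signalling. With 6 libraries Kif21b and Kif24 rose, 0 of 12 fell and 10 did not pass; the median log2 fold change was 0.14, and -0.04 with 8 libraries. Neither sign was stable: on log2(FPKM + 1) the 6-library median was -0.08, and with limma voom the 8-library median was 0.23. Of the 12, 8 had knockdown 1 and 2 both below the other 6 libraries and 2, Kif9 and Kif19a, both above. Across all genes these shares were 31.8% and 28.1%.

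Kif21b, a regulator of microtubule growth in neurons and lymphocytes, had 30.4, 33.0, 22.5, 33.4 and 31.5 CPM in knockdown 1 to 5, against 12.2, 10.1 and 8.70 CPM in WT 1 to 3. All 5 knockdown libraries were above WT, and knockdown 1 and 2 lay among the other knockdown libraries. The log2 fold change was 1.50 ± 0.25 with 6 libraries (edgeR, adjusted p = 0.0103) and 1.55 ± 0.26 with 8 (adjusted p = 0.137). It missed the threshold without knockdown 4 or WT 3 (adjusted p = 0.0607 and 0.0579). Its paralogue Kif21a, which restrains microtubule growth at the cortex and in axons, had 3.76, 3.30, 61.4, 109 and 162 CPM in knockdown, against 113, 94.3 and 103 CPM in WT. Knockdown 1 and 2 had little Kif21a and knockdown 4 and 5 as much as WT or more. Kif21b therefore made up 92.8%, 92.5%, 21.7%, 19.5% and 13.1% of the FPKM of the pair in knockdown and 7.42%, 7.05% and 5.75% in WT. The summed share of the leukocyte markers, of which 10 of 14 rose with 6 libraries and 0 fell, was also higher in every knockdown library than in WT, though Lyz2, Laptm5 and Coro1a overlapped WT through knockdown 5, and their part in the Kif21b difference was not tested.

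Kif24, a centriolar depolymerase that restrains the formation of cilia, had 15.6, 13.8, 10, 27.4 and 26.9 CPM in knockdown, against 8.65, 8.02 and 9.36 CPM in WT. The groups did not overlap, knockdown 3 being closest to WT. The log2 fold change was 1.31 ± 0.37 with 6 libraries (edgeR, adjusted p = 0.0413) and 1.11 ± 0.41 with 8 (adjusted p = 0.213). It missed the threshold without knockdown 4 or 5 or any WT library (adjusted p = 0.157, 0.103, 0.109, 0.133 and 0.118), and on log2(FPKM + 1) it was 0.58 (limma, adjusted p = 0.136). The expected counts of Kif24 were not whole numbers in all 8 libraries, so some of its reads may be shared with other loci. The same held for Kif20a, Kif21a, Kif2a and Kif5b, and in 7 libraries for Kif11 and Kif27. Shares within the Kif20, Kif21 and Kif5 subfamilies carry this limit too.

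Kif26a and Kif26b are atypical kinesins without motor activity. Kif26a, which in mice restrains GDNF-Ret signalling in enteric neurons, had 0.927, 0.471, 17.2, 28.3 and 25.8 CPM in knockdown and 50.8, 21.9 and 33.0 CPM in WT. Knockdown 1 and 2 had nearly none, and knockdown 3 to 5 overlapped WT 2, so the difference did not pass (-0.56 ± 0.32, edgeR, adjusted p = 0.235, 6 libraries). Kif26b, of cell adhesion and Wnt5a-Ror signalling, had 0, 0.471, 9.85, 13.9 and 20.8 CPM in knockdown, against 8.17, 7.15 and 6.13 CPM in WT. Knockdown 3 to 5 were above WT and knockdown 1 and 2 below, and the 6-library difference of 1.06 ± 0.33 missed the threshold (edgeR, adjusted p = 0.0521). The mesenchyme markers, of which 6 of 9 rose with 6 libraries and 0 fell, had the same order of groups, and their part was not tested.

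Kif2a, a depolymerase of spindle poles and axon branches, had 30.6, 45.5, 74.0, 101 and 121 CPM in knockdown and 77.6, 58.7 and 69.0 CPM in WT. Its difference with 6 libraries was 0.53 ± 0.22 (edgeR, adjusted p = 0.111). Kif9, a ciliary kinesin, had 7.01, 5.32, 0.629, 1.26 and 1.20 CPM in knockdown, against 0.261, 0.322 and 0.294 CPM in WT. It was low everywhere, where 3 counts correspond to 0.0966 to 0.155 CPM, but above WT in all 5 knockdown libraries (1.80 ± 0.75 on the log2 scale with 6 libraries, edgeR, adjusted p = 0.116). Kif7, the ciliary tip regulator of Hedgehog signalling, had 4.79, 3.72, 7.33, 16.7 and 10.1 CPM in knockdown and 13.4, 14.0 and 14.7 CPM in WT, with knockdown 4 above WT. The remaining 4 tested members, Kif6, Kif12, Kif19a and Kif27, averaged at most 7.39 CPM in either group and did not pass.

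Kif1bp, which binds several kinesins and keeps them from microtubules, had 57.5, 62.0, 43.1, 26.1 and 39.0 CPM in knockdown and 51.4, 55.2 and 56.6 CPM in WT. Knockdown 3 to 5 lay below WT and knockdown 1 and 2 above, and the 6-library difference did not pass (-0.59 ± 0.22, edgeR, adjusted p = 0.0823).

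**Figure D5:**
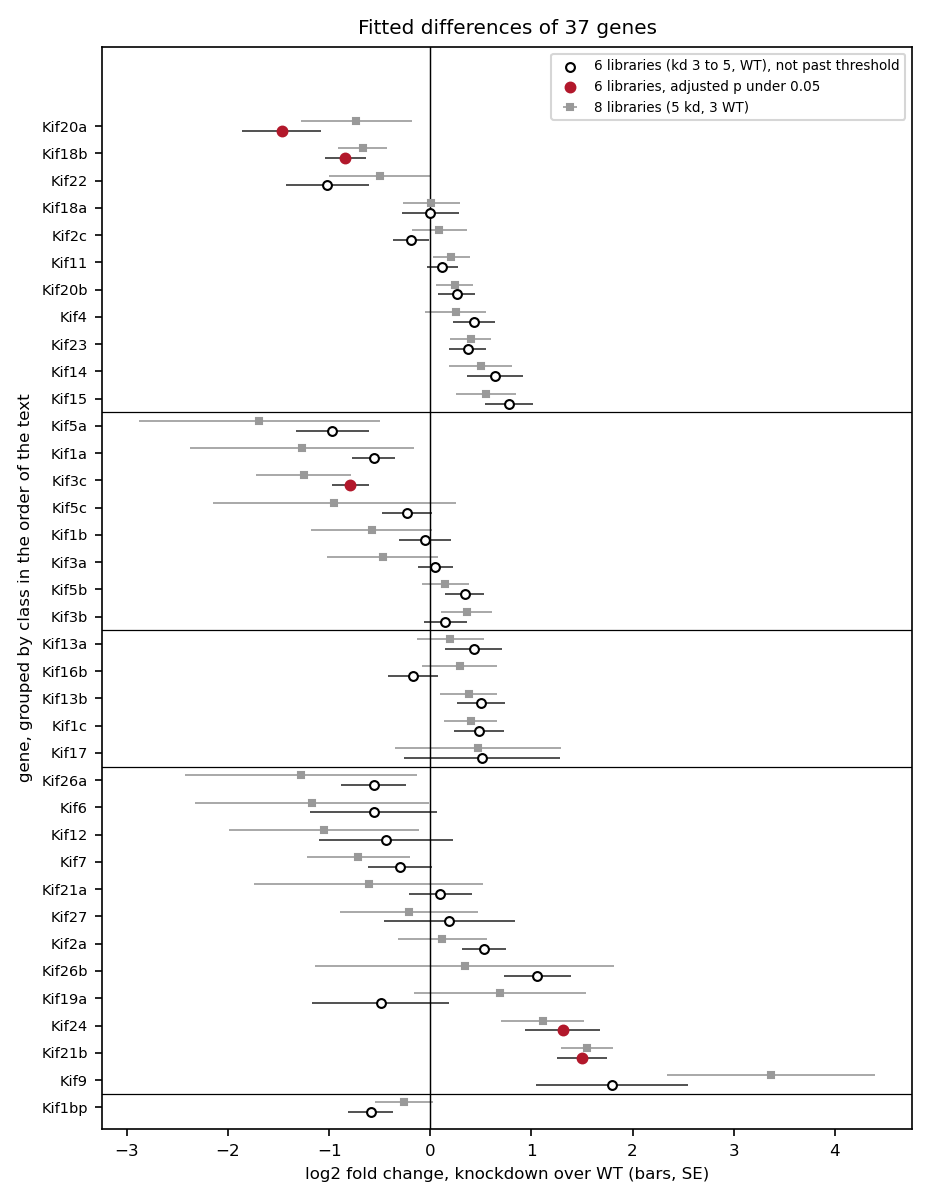
Log2 fold change of libraries labelled knockdown over WT for the 37 tested genes, with bars for SE, grouped by class. Filled red points mark the 5 genes past an adjusted p of 0.05 with 6 libraries, and grey squares the 8-library values. Wide bars among the latter include Kif26b (0.34 ± 1.48), Kif5a (-1.69 ± 1.19) and Kif1a (-1.27 ± 1.11).

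Over all 37 genes, the CPM ranges of the groups did not overlap in 9 with 8 libraries (5 higher and 4 lower in knockdown), or 24.3%, where 22.7% of all genes had no overlap. With 6 libraries they did not overlap in 14 (7 higher and 7 lower), or 37.8%, where 43.4% of all genes had none. Separation of the groups was thus about as frequent among kinesins as among genes at large.

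Kinesins work with adaptors, passengers and the opposing motor dynein, and lists of these genes were read beside them. Of 3 mitotic motors whose names do not start with Kif and a digit, Cenpe, the kinetochore kinesin, rose with 6 libraries: it had 102, 126, 134, 231 and 189 CPM in knockdown and 96.0, 106 and 106 CPM in WT (0.85 ± 0.21, edgeR, adjusted p = 0.0286). Of 19 mitotic partners 2 rose and 2 fell, a share near the 20.4% of all genes called, with a median log2 fold change of 0.00. This list holds Cenpe and Kifc1 again, so Cenpe is 1 of the 2 that rose. The other was Birc5 (0.63 ± 0.18, edgeR, adjusted p = 0.042). Plk1, the kinase of mitotic entry, fell (-0.77 ± 0.20, edgeR, adjusted p = 0.0315), as did Racgap1, the partner of Kif23 in centralspindlin (-0.66 ± 0.19, adjusted p = 0.0401). The proliferation marker Mki67 had 281, 360, 276, 332 and 319 CPM in knockdown, above 237, 247 and 258 CPM in WT, but did not pass (edgeR, adjusted p = 0.173, 6 libraries).

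Of 22 transport partners, which include Kif1bp, 9 fell and 1 rose with 6 libraries, with a median of -0.48, where 9.37% of all genes were called lower and 11.1% higher. The neuron and neural crest markers had medians of -0.87 and -1.19 in the same fit, and their part in these differences was not tested. Fez1, an adaptor of kinesin-1, had 0.979, 0.518, 37.9, 25.1 and 29.5 CPM in knockdown, against 90.6, 86.0 and 92.4 CPM in WT (-1.54 ± 0.20, edgeR, adjusted p = 0.00497). Mapk8ip1, the kinesin-1 scaffold JIP1, fell by 1.33 ± 0.18 on the log2 scale (edgeR, adjusted p = 0.00621) and Hap1, which links kinesin-1 to vesicles, by 1.17 ± 0.26 (adjusted p = 0.0195). The partner that rose was Plekhm2 (1.06 ± 0.30, edgeR, adjusted p = 0.0391). Of 24 dynein and dynactin genes 2 rose and 3 fell, a share near that of all genes called, with a median of -0.21. The dynactin filament subunits Actr1a (-1.14 ± 0.20) and Actr1b (-1.29 ± 0.28) were among those that fell (edgeR, adjusted p = 0.0120 and 0.0196). Those that rose were Dync1h1 (1.02 ± 0.29) and Dynll1 (0.85 ± 0.25; edgeR, adjusted p = 0.0423 and 0.0439). With 8 libraries 0 genes of these lists passed.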

How the data were processed

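The deposited table gave 4 values per gene and library. Expected counts, deposited by the authors unscaled per the file headers, were rounded to whole numbers, 17.6% to 19.8% of values per library not being whole. FPKM (per length and library size) and TPM (summing to 1000000) were computed by the authors, per the file headers. The authors' normalised count columns, a signal, and 8 columns of group means were not used, and TPM served as an alternative. The submitters' processing notes name HISAT, Bowtie2 and GRCm38.p6. No counting tool or annotation is given in the sources used here. Reads carried no strand or molecular identifier, so overlapping genes share reads, and limits from counts cover counting error only.

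Genes were filtered with filterByExpr, scaled with TMM and tested two-sided in edgeR 4.0.16 (robust quasi-likelihood) under R 4.3.3, with Benjamini-Hochberg adjustment over all genes tested and a threshold of 0.05. CPM used the TMM scaling of 8 libraries. Alternatives were DESeq2 1.42.0, limma 3.58.1 (voom with quality weights, log2(FPKM + 1), log2(FPKM + 0.1)), other scalings and filters, a replicate block and each library left out. On simulated counts for 8 libraries and 15001 genes, the test recovered 40 of 60 genes with 32-fold changes, 8 of 70 with 4-fold and 0 of 70 with 2-fold, and 3 of 51 calls were false. For 6 libraries and 14886 genes it recovered 57 of 60, 57 of 70 and 17 of 70, and 9 of 140 calls were false. Simulated counts were drawn independently for each gene. Simulated knockdown 1 and 2 thus did not differ together from the other libraries, as the real ones did. The recovery and false calls with 8 libraries therefore cannot be carried over to these data. Transcript length was read from genes with at least 100 counts and an FPKM of at least 1. Python 3.11.15, pandas 2.3.3 and matplotlib 3.10.9 made tables and figures.

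The members, classes, lists and the choice of 6 libraries were made with earlier results of these data known. Library values are given for members past the threshold, up to 4 per class with the smallest p, and the Kif5, Kif1, Kif3, Kif21 and Kif20 paralogues, and for at most 3 genes of each further list, with Emb and Mki67. Library values of Kif11, Kif23, Kif26a, Kif9 and Kif7, outside this rule, were added after they were seen.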

Additional observations from a re-analysis of the deposited data

Results flagged for a closer look

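Among the 5 libraries labelled knockdown, Kif21b was lowest in knockdown 3, at 22.5 CPM, and the nearest other library had 30.4 CPM. The gap was 0.73 of the group's range, above Dixon's critical value of 0.71 for 5 libraries. In WT the gene had 8.70 to 12.2 CPM, so knockdown 3 was still above WT. This was the only such value among 37 genes examined, and chance gives about 1 in 20 groups. Leaving out knockdown 3 kept Kif21b past the threshold with 6 libraries.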

How the results depend on the processing

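With 8 libraries the 0 kinesins called became 4 with DESeq2, 10 with limma voom and 5 without knockdown 1 and 2, and all genes called went to 2222, 3691 and 3090; leaving out any 1 library gave 0 kinesins and 0 to 2 genes. With 6 libraries the 5 kinesins became 9 with DESeq2 and 18 with voom, and 0 to 15 when 1 library was left out; all genes went to 6900 with voom and 180 to 5982 with 1 left out. The mitotic median with 8 libraries was -0.05 without a composition factor and -0.12 and -0.13 on log2(FPKM + 1) and log2(FPKM + 0.1). With the mean of members' logs in place of the log of the sum, the mitotic to transport difference was 1.15 with 8 libraries and 0.16, of the opposite sign, with 6. The labels do not say whether replicate numbers pair the libraries. Deviations of same-numbered libraries from their group means correlated at -0.0274, 0.0402 and -0.0449. These values cannot decide it, because knockdown 1 and 2 stood far from the other knockdown libraries and so shaped the deviations in that group. With the replicate block 0 genes were called and the axonal transport median was -1.83. No paired analysis was possible because knockdown 3 to 5 and WT 1 to 3 share only number 3 in the 6-library comparison. Signs turned for genes with no call: Kif3a with 8 libraries (0.05 without knockdown 1 and 2) and with 6 (0.05; -0.03 without a composition factor and on both FPKM scales, and -0.05 to 0.13 with 1 library left out, negative without knockdown 5 or WT 2), Kif1b with 6 (0.06 with voom, and -0.26 to 0.19 with 1 left out, positive without knockdown 3 or WT 1), and Kif21a with 8 (0.10 without knockdown 1 and 2) and with 6 (-0.17 and -0.19 on the FPKM scales, and -0.27 to 0.38 with 1 left out, negative without knockdown 5). The causes were not tested. Of the other values for single genes, 463 kept their direction and their side of the threshold, 34 gained a call and 22 lost one. The median of kinesins of microtubule ends, cilia and signalling took both signs, from -1.17 (replicate block) to 0.23 (voom) with 8 libraries and from -0.14 (log2(FPKM + 0.1)) to 0.49 (without WT 2) with 6. That of other transport kinesins ran from -0.01 to 0.48 with 8 and from 0.14 to 0.59 with 6. At this depth 3 counts equal 0.0966 to 0.155 CPM, which limits Kif2b, Kif28 and the value of Kif26b in knockdown 1.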
